A study of Mus musculus with 12 samples.

Results

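The 10 genes described here encode membrane proteins of tight junctions: the claudins Cldn3, Cldn4, Cldn6, Cldn8, Cldn9, Cldn11, Cldn14 and Cldn23, occludin (Ocln) and tricellulin (Marveld2). They were chosen by name, with earlier results of these data known, and make up 10 of the 19938 genes that the array lists under 1 gene symbol. Counts of these genes beside shares of all genes are therefore a description. Each of them has 1 row in the deposited table, so that the value with the highest mean was the only value of the gene. RNA came from the cochlea of wild-type C57BL/6 mice at postnatal day 0 (P0) or 8 (P8), divided into base, middle and apex, which gives 6 groups with 2 Mouse Gene 1.0 ST arrays each, 12 in all. All groups share this genotype and had no treatment. The 2 arrays of a group are replicates 1 and 2, from a first and a second dissection set. The sample titles carry a year, earlier for replicate 1, and name no dissection set. The sets are read from the study's account of a repeated dissection. Differences of year or hybridization cannot be told apart from them. Each set at each age was a pool of about 80 temporal bones, so that the 3 regions of such a pool share their animals, and no value belongs to a single animal. The tissue held the organ of Corti and the lateral wall together, without the otic capsule. In such a mixture, fewer cells of a type and less RNA per cell cannot be told apart.

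Tight junctions seal the space between epithelial cells. Claudins form their strands and set which ions pass between cells, occludin is a MARVEL domain protein of the same strands, and tricellulin, another MARVEL protein, closes the points where 3 cells meet. In the cochlea these junctions separate the potassium-rich endolymph from perilymph at the apical surface of the organ of Corti, and the basal cells of the stria vascularis use Cldn11 to isolate the compartment in which the endocochlear potential arises. Mutations of Cldn9, Cldn11, Cldn14, Marveld2 or Ocln cause deafness in mice.

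The sequences below are the 250 bases before the annotated start of 4 of the genes, 5′ to 3′ on the gene's strand, from RefSeq (GRCm38.p6). Cldn6 is shown because it was the 1 gene of the 10 to pass the test between the ages over all regions, and Cldn11 because it was the 1 gene of the 10 to pass along the duct at P0, once dissection sets were taken into account. Cldn3 and Cldn4 are shown because they are neighbours in the genome and moved together over the arrays. Capitals mark CAGGTG or its reverse complement CACCTG, the E-box recognised by zinc finger repressors of the Snail and ZEB families, which lower claudin and occludin genes in cultured epithelial cells.
Cldn6, chr17:23679115-23679364, plus strand: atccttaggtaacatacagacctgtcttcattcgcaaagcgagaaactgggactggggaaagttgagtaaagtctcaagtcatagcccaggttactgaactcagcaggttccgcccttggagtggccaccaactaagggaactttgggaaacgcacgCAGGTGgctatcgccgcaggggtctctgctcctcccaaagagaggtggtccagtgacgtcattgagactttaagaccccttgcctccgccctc
Cldn11, chr3:31149670-31149919, plus strand: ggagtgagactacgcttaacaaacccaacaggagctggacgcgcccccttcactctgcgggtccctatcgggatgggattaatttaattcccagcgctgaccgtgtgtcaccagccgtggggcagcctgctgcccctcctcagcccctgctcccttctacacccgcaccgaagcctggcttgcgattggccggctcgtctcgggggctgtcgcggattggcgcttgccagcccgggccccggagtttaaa
Cldn3, chr5:134985964-134986213, plus strand: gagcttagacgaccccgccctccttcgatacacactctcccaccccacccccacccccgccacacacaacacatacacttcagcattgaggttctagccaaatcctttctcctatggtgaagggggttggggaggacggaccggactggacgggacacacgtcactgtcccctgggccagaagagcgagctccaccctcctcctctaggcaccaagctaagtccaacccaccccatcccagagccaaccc
Cldn4, chr5:134946935-134947184, minus strand: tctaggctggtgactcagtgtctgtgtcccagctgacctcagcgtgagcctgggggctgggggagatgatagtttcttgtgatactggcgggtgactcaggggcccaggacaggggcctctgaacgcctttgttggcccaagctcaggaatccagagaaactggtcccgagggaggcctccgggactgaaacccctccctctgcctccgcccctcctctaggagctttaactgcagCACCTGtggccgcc

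The motif was chosen after these sequences were seen. Promoter windows of 300 bases, 250 before and 50 after the start, were at hand for 7 of the 10 genes (11 windows), and none was used for Cldn8, Cldn9 and Cldn23. Cldn4 has a match whose first base lies 14 bases before the start and another 12 bases after it, Cldn6 has matches 93 bases before and 41 bases after, and Cldn3 has its match 32 bases after the start, outside the stretch shown. The only window of Cldn11 has none. At least 1 window of Cldn14, Marveld2 and Ocln holds the motif, so that 6 of these 7 genes do. Windows of 1 gene can overlap and share a match, as those of Marveld2 and of Ocln do. Of all 32851 promoter windows of this length, 20.2% hold it, a share per window and not per gene. In the same annotation no protein-coding gene lies between Cldn3 and Cldn4, between Cldn6 and Cldn9, or between Marveld2 and Ocln.

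Values are log2 signals from robust multiarray averaging (RMA), and differences are log2 differences with their standard error (SE). All 10 genes were above the log2 signal of 6 in at least 1 group mean and entered a limma fit over 16306 genes. To pass between regions, or between ages within a region, a gene needed an adjusted p (Benjamini-Hochberg) under 0.05 and at least a 1.5-fold difference. Over the 3 regions together a fold of at least 2 was asked for. Because the pieces of a pool are paired between regions, the same fit with the dissection set as a block is given where it changes a call. Pools of P0 and P8 hold different animals, so between ages the block pairs dissection sets and not animals. Both fits count the 3 pieces of a pool as separate arrays, although they share animals. SEs and p-values for age over the 3 regions, and all blocked ones between ages, can therefore be too small. Levels are not compared between genes, since their probes differ.

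The arrays of the second set differed from those of the first in many of these genes. Cldn6, Cldn8, Cldn11 and Ocln were higher in the second set in all 6 groups, by a mean of 0.49 and 1.06 (P0 and P8) for Cldn6, 0.75 and 1.07 for Cldn8, 0.43 and 0.54 for Cldn11, and 0.57 and 0.46 for Ocln. Cldn3 and Cldn4 were lower in the second set at P0, with offsets of -0.69 and -0.51, while at P8 the offsets were -0.06 and 0.06. Cldn9, at 0.03 and -0.12, and Cldn14, at 0.08 and 0.05, hardly differed between the sets. The block removes an offset that is the same at both ages and in all regions. Over all tested genes the median SD within a group's arrays was 0.175, and the precision is limited by the small number of arrays.

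**Figure D1:**
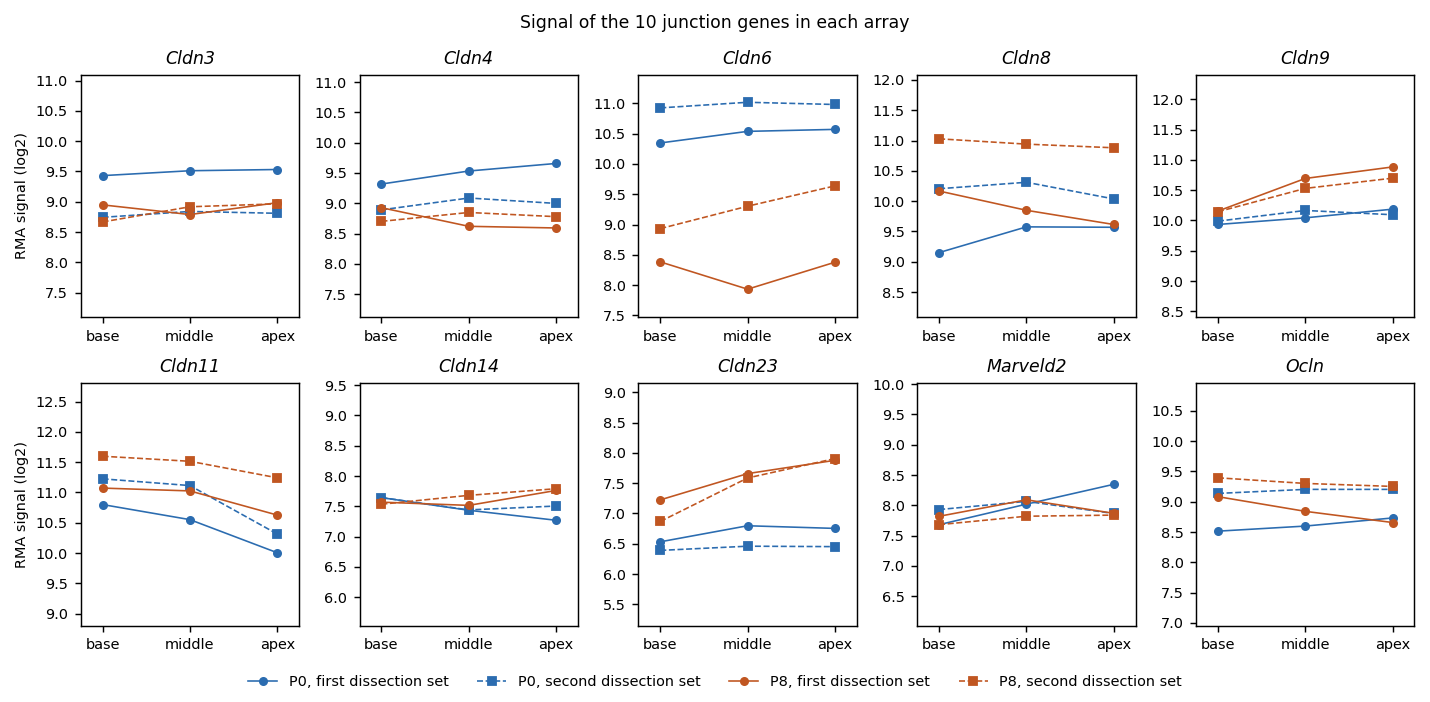
Log2 RMA signal (vertical axes, which span the same number of units in each panel) of the 10 genes in the base, middle and apex, with each point an array and each line the 3 pieces of 1 pool (P0 blue, P8 orange; first dissection set circles and solid lines, second set squares and dashed lines). Cldn6 lies lower at P8 in every region, Cldn23 lies higher at P8 in every region, and Cldn11 is lower in the apex than in the base in all 4 pools.

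With age, Cldn6 fell and Cldn23 and Cldn9 rose. Over the 3 regions, 1 of the 10 genes (Cldn6, lower at P8) passed the test, where 3.20% of all genes did. With the block the count was again 1, against 3.43%. Within single regions, Cldn23 passed in the middle (1 of 10, against 4.02% of all genes) and Cldn23 and Cldn9 passed in the apex (2 of 10, against 4.53%), all higher at P8. None passed in the base, where 3.82% of all genes did and 1 of 10, Cldn6, had an unadjusted p under 0.05 with the fold asked for (8.82% of all genes). With the block, the base had 2 genes that passed (Cldn6 and Cldn8, against 10.5%), the middle 2 (Cldn6 and Cldn23, against 11.1%) and the apex 5 (Cldn4, Cldn6, Cldn9, Cldn11 and Cldn23, against 12.0%). The median difference with age of the 10 genes was 0.17, with 6 higher at P8 and 4 lower. Over all tested genes the median was -0.001, and 49.8% were higher at P8. Other cells of the tissue moved between the ages as well: 5 of 5 bone markers tested were higher at P8 by a median of 1.86, and 6 of 7 markers of spiral ganglion neurons were lower (median difference over the list -0.86), while 10 markers of simple epithelia had a median of 0.01. Their part in the changes of the junction genes was not tested.

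Cldn6 is a claudin of embryonic epithelia, absent from most adult tissues. At P0 it measured 10.35 and 10.93 in the base (replicates 1 and 2), 10.54 and 11.02 in the middle, and 10.57 and 10.98 in the apex. At P8 it measured 8.38 and 8.93 in the base, 7.93 and 9.30 in the middle, and 8.38 and 9.64 in the apex. Every P8 array was below every P0 array, by 0.71 or more, and the second set was above the first in each group. The fall over the 3 regions was -1.97 ± 0.30 (SE, n = 6 arrays from 2 pools per age), or 3.91-fold lower. Its adjusted p was 0.0022 from limma, which counts the 3 pieces of a pool as independent. The fall was -2.25 in the first set and -1.68 in the second. Within the base (-1.98 ± 0.52), the middle (-2.16 ± 0.52) and the apex (-1.77 ± 0.52) the adjusted p was 0.0813, 0.0569 and 0.105, and with the block 2.44e-04, 1.22e-04 and 3.98e-04. In the order of the 6 groups, the arrays of neighbours overlapped in 4 of the 5 steps, the exception being the step from the lowest P0 group (base) to the highest P8 group (apex), a gap of 1.63.

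Cldn9, the gene next to Cldn6, went the other way. Cldn9 is found in the apical junctions of hair cells and supporting cells, where it limits the passage of ions. At P0 it measured 9.93 and 9.99 in the base, 10.04 and 10.16 in the middle, and 10.19 and 10.09 in the apex. At P8 the base was at 10.15 and 10.14, the middle at 10.69 and 10.53, and the apex at 10.88 and 10.70. The middle and the apex at P8 were above all other arrays, while the base at P8 overlapped the apex and the middle at P0. In the order of the group means, from the P8 apex down to the P0 base, 2 of the 5 steps had overlapping arrays. The difference between the ages was 0.65 ± 0.13 in the apex (n = 2 arrays per group, 1.57-fold, adjusted p = 0.0268 from limma), 0.51 ± 0.13 in the middle (adjusted p = 0.073) and 0.19 ± 0.13 in the base (adjusted p = 0.666). Averaged over the regions it was 0.45 ± 0.08, with an adjusted p of 0.00371 but a fold of 1.36. The call in the apex rested on every array of the apex at both ages and of the P8 base: without any 1 of these its adjusted p ran from 0.0513 to 0.201, and in a fit of only the arrays compared it was 0.269.

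Cldn23 had the largest rise of the 10 genes in the middle, in the apex and in the mean of the regions, while in the base Cldn8 had a larger difference. At P0 its arrays lay between 6.39 and 6.80 in all 3 regions, close to the level of 6 under which genes were left out. At P8 it measured 7.22 and 6.87 in the base, 7.66 and 7.59 in the middle, and 7.88 and 7.91 in the apex. Every P8 array was above every P0 array, and at P8 the 3 regions did not overlap. The 2 steps of overlap in the order of its 6 groups were those among the P0 regions. The rise was 0.99 ± 0.18 in the middle (1.99-fold, adjusted p = 0.0195 from limma) and 1.29 ± 0.18 in the apex (2.44-fold, adjusted p = 0.00535). In the base it was 0.59 ± 0.18 (adjusted p = 0.144), and with the block its adjusted p was 0.0098 with a fold just short of the one asked for. As the mean of all regions, the rise of 0.96 ± 0.10 had an adjusted p of 4.01e-04, but its fold of 1.94 was under 2. It passed that fold without the first P0 middle array, the first P0 apex array or the second P8 base array, at 1.01 to 1.02. In the middle, the call was lost without any 1 of the 4 arrays compared (adjusted p from 0.0546 to 0.125). Fitted on only the arrays compared, the adjusted p was 0.168 in the middle and 0.0751 in the apex.

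**Figure D2:**
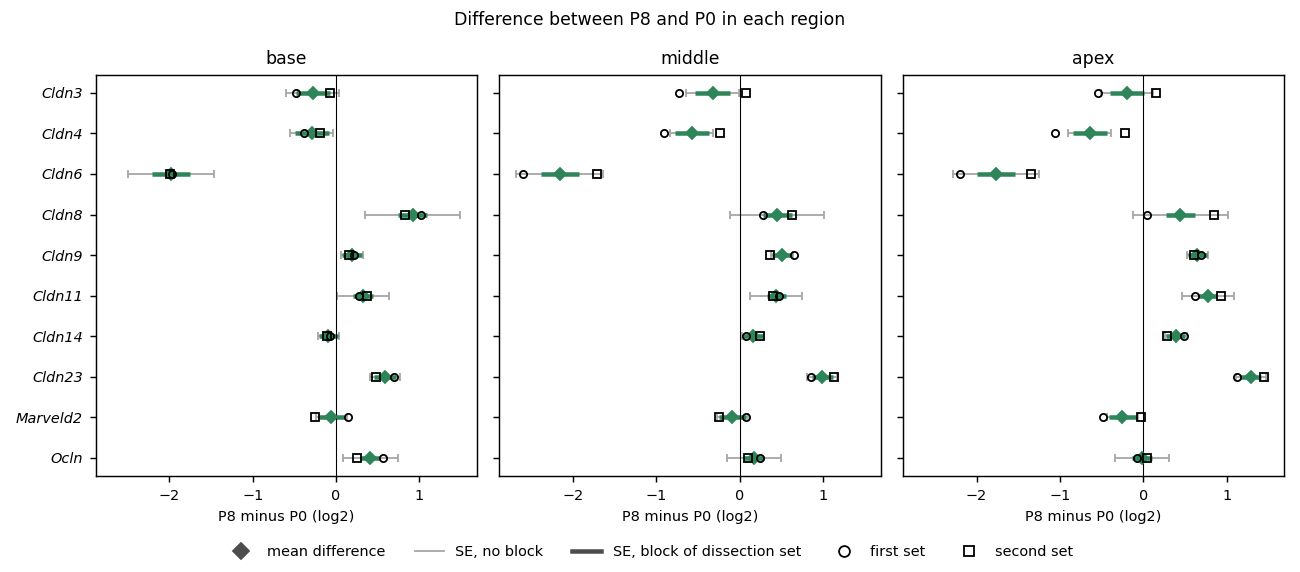
Difference between P8 and P0 (log2, horizontal axis) of the 10 genes in the base, middle and apex, with the mean of both sets (diamond), the first set (circle), the second set (square), the SE without a block (thin grey line) and with a block for dissection set (thick green line). Cldn6 is at -1.77 to -2.16 and Cldn23 at 0.59 to 1.29, while Marveld2, Cldn3 and Ocln have sets on both sides of 0 in at least 1 region.

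Cldn8 passed between the ages only with the block, and only in the base. Cldn8, a claudin that together with Cldn4 sets chloride passage in the mouse kidney collecting duct, measured 9.15 and 10.21 in the P0 base and 10.17 and 11.03 in the P8 base. The arrays of the ages overlapped, although both sets were higher at P8, by 1.02 and 0.82. The difference of 0.92 ± 0.57 had an adjusted p of 0.586 from limma without and 0.00424 with the block. In the middle it was at 9.58 and 10.31 at P0 and 9.85 and 10.94 at P8, and in the apex at 9.57 and 10.04 at P0 and 9.61 and 10.88 at P8, with no call in either.

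Cldn4 was lower at P8 in both sets and in every region. At P0 it measured 9.32 and 8.89 in the base, 9.53 and 9.09 in the middle, and 9.66 and 9.00 in the apex. At P8 it measured 8.93 and 8.70 in the base, 8.62 and 8.85 in the middle, and 8.59 and 8.78 in the apex. The ages overlapped in the base only. Over the 3 regions the difference was -0.50 ± 0.15 (n = 6 arrays from 2 pools per age, adjusted p = 0.0467 from limma), under the fold asked for. In the apex it was -0.64 ± 0.26, with an adjusted p of 0.242 without and 0.047 with the block. That last call held in 4 of 12 fits that each left out 1 array.

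Cldn3, its neighbour, measured 9.43 and 8.74 in the base, 9.51 and 8.84 in the middle, and 9.53 and 8.81 in the apex at P0. At P8 it was at 8.95 and 8.67, 8.79 and 8.92, and 8.98 and 8.97 in the same order. The first set was lower at P8 in all regions and the second in the base alone, and the arrays of the ages overlapped in each region. Cldn3 passed no test with or without the block. Over the 12 arrays Cldn3 and Cldn4 correlated at r = 0.85, Cldn8 and Ocln at r = 0.93, Cldn9 and Cldn23 at r = 0.93, and Cldn6 and Cldn23 at r = -0.79. These 12 points share dissection sets and ages, so the values describe the arrays and carry no test. Cldn6 and Cldn9, neighbours in the genome, had r = -0.67.

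Along the duct, no member differed between apex and base at either age without the block. At P0, 0 of 10 passed where 1 of the 16306 genes did (0.00613%), and at P8 0 of 10 where 0.196% did. With p under 0.05 before adjustment and the same fold, 1 of 10 passed at P0 (Cldn11, lower in the apex) against 1.15% of all genes, and 2 of 10 at P8 (Cldn9 and Cldn23, higher in the apex) against 1.95%. With the dissection set as a block, the same genes passed after adjustment: Cldn11 at P0, 1 of 10 against 0.675%, and Cldn9 and Cldn23 at P8, 2 of 10 against 1.58%. The median apex-base difference of the 10 genes was 0.14 at P0, with 8 higher in the apex, and 0.14 at P8, with 6 higher, beside 0.03 and 0.003 over all tested genes. Of all tested genes, 57.2% were higher in the apex at P0 and 50.6% at P8. In the first and second set the median of the 10 genes was 0.22 and 0.06 at P0, and 0.015 and 0.21 at P8. Of 10 markers of simple epithelia, 8 were also higher in the P0 apex (median over the list 0.22). The methods' t-test passed no gene of the array in any contrast of 2 groups, between regions or between ages, after Benjamini-Hochberg adjustment.

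Cldn11 was lower in the apex than in the base in all 4 pools. At P0 it measured 10.80 and 11.22 in the base, 10.55 and 11.11 in the middle, and 10.01 and 10.31 in the apex. At P8 it measured 11.07 and 11.60 in the base, 11.03 and 11.51 in the middle, and 10.63 and 11.24 in the apex. The apex at P0 was below every other array, while the 3 regions at P8 overlapped. The apex-base difference at P0 was -0.85 ± 0.31 (1.81-fold lower, adjusted p = 1 from limma), at -0.80 in the first set and -0.91 in the second. With the block its SE was 0.12 and its adjusted p 0.0112. Most of it lay between middle and apex, -0.67, which passed when each pool was a block of its own (adjusted p = 0.016, against 1 without a block and 0.101 with the dissection set as the block). At P8 the apex-base difference was -0.40 ± 0.31, at -0.45 and -0.36 in the sets, with an adjusted p of 1 without and 0.146 with the block. Left-out arrays moved the blocked adjusted p at P0 to 0.10 without the first P0 base array, 0.107 without the second and 0.0635 without the second P0 apex array, and it stayed under 0.05 in the other 9 fits.

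With age, Cldn11 was higher at P8 in both sets and all regions. In the apex the difference was 0.78 ± 0.31 (adjusted p = 0.242 from limma without and 9.56e-04 with the block), in the middle 0.44 ± 0.31 and in the base 0.32 ± 0.31. The blocked call in the apex held in all 12 fits that each left out 1 array. Of the markers of the stria vascularis, the 6 marginal cell genes found of a list of 7 were all lower in the apex than in the base, with median differences of -0.35 at P0 and -0.33 at P8, and all higher at P8 than at P0, by a median of 0.92. Their mean ran from 9.49 to 10.01 in the P0 base, 9.25 to 9.55 in the P0 apex, 10.58 to 10.95 in the P8 base and 10.30 to 10.50 in the P8 apex. Of 7 genes of intermediate cells and melanocytes, 6 were lower in the apex at P0 (median over the list -0.40) and 7 at P8 (-0.43). Spiral ligament fibrocytes, outside the stria, had 3 of 5 genes lower in the apex at P0 (median over the list -0.05) and 4 at P8 (-0.19). Their list mean was lower in the apex in both sets at both ages. With age, 3 of these 5 were higher at P8 (median over the list 0.34). No list held markers of basal cells. All 4 genes of a list for the outer sulcus and proton or anion transport, such as Slc26a4 and Atp6v0a4, were lower in the apex at P0 (median difference -0.61), with a mean of 8.35 and 8.60 in the base and 7.61 and 7.62 in the apex. Within the apex, 3 of these 4 were higher at P8 than at P0 (median difference over the list 1.18), but at P8 3 of 4 were higher in the apex than in the base (0.17). The part of these cells in the values of Cldn11 was not tested. Oligodendrocytes, which also make Cldn11, had 5 of 6 marker genes found, with a mean between 6.40 and 6.71 in all 12 arrays and a median change with age of -0.03.

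Cldn9 and Cldn23 were higher in the apex than in the base at P8, in both sets. From the values above, the difference of Cldn9 was 0.64 ± 0.13 (1.56-fold, adjusted p = 0.174 from limma without and 0.0208 with the block), at 0.73 in the first set and 0.55 in the second. For Cldn23 it was 0.85 ± 0.18 (1.80-fold, adjusted p = 0.206 without and 0.00747 with the block), at 0.65 and 1.04. In both genes the apex arrays were above the base arrays, and the middle was nearer to the apex than to the base. The blocked calls needed the arrays compared: for Cldn9 each of the 4 (adjusted p from 0.0741 to 0.221 without 1 of them), and for Cldn23 both base arrays (0.0527 and 0.119) and the second apex array (0.0867). At P0 the apex-base differences were 0.18 for Cldn9 and 0.14 for Cldn23, with no call in any fit.

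Hair cell and supporting cell markers were also higher in the apex at P8. All 14 hair cell genes found of a list of 15 were higher there, by a median of 0.44, and their mean was at 7.72 and 7.83 in the base, 8.01 and 8.25 in the middle, and 8.18 and 8.47 in the apex. All 8 supporting cell genes were higher, by a median of 0.45, with a mean of 7.87 and 7.91 in the base and 8.35 and 8.72 in the apex. Supporting cell genes were higher in the apex at P0 too, 8 of 8 with a median of 0.30. Cldn9 and Cldn23 had P0 apex-base differences of 0.18 and 0.14. Between the ages 5 of 8 supporting cell genes were lower at P8 (median difference over the list -0.58). Cldn9 and Cldn23 differed by 0.45 and 0.96 between the ages over the 3 regions. Of the 14 hair cell genes, 9 were higher in the P0 apex than in the P0 base (median over the list 0.05). Over the 3 regions 9 of 14 were higher at P8 (median 0.08), and within the apex 10 of 14 (median 0.36). Markers of spiral ganglion neurons were higher in the P8 apex in 7 of 7, with a median of 0.38, at -0.16 in the first set and 1.25 in the second. Bone markers ran the other way at P8, with 5 of 5 lower in the apex (median difference -1.26). Of 10 genes of simple epithelia, such as Cdh1 and Epcam, 6 were higher there than in the base (median difference over all 10 of 0.11). The part of these cells in the values of Cldn9 and Cldn23 was not tested.

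**Figure D3:**
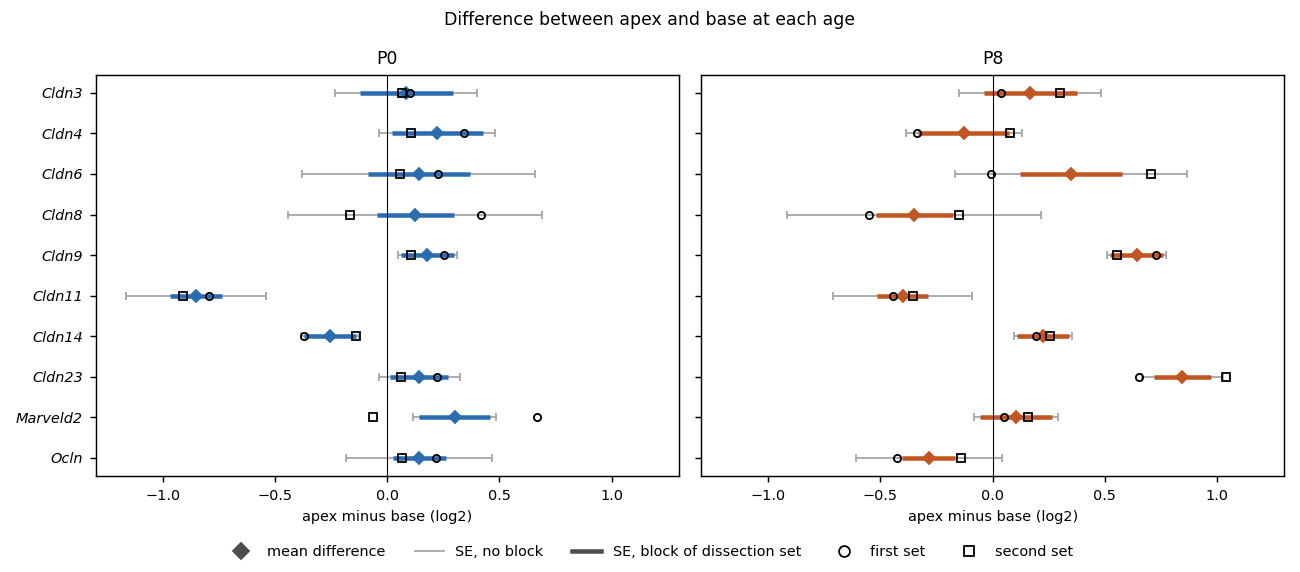
Difference between apex and base (log2, horizontal axis) of the 10 genes at P0 (left) and P8 (right), with symbols and lines as in the plot of P8 against P0. Cldn11 at P0 (-0.85) and Cldn9 and Cldn23 at P8 (0.64 and 0.85) are the differences that passed with the block, and in each both sets lie on the same side of 0.

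Cldn14, Marveld2 and Ocln passed no test in any fit. Cldn14, expressed by hair cells and supporting cells and needed for outer hair cells to survive, measured 7.64 in both P0 base arrays, 7.43 and 7.44 in the P0 middle, and 7.27 and 7.50 in the P0 apex. At P8 it was at 7.57 and 7.53 in the base, 7.52 and 7.68 in the middle, and 7.76 and 7.79 in the apex. Base was above apex at P0 and apex above base at P8, in both sets. Marveld2 stayed between 7.68 and 8.35 in all 12 arrays, with the highest value in the first P0 apex array and the second P0 apex array at 7.87. That first array also had the highest mean of 8 skeletal muscle markers, 7.85 against 6.56 to 7.06 in the other 11 arrays. The same array enters every difference above that uses the P0 apex. The part of the muscle signal in these differences and in the value of Marveld2 was not tested. Ocln measured 8.51 and 9.14 in the base, 8.60 and 9.20 in the middle, and 8.73 and 9.20 in the apex at P0, and 9.08 and 9.39, 8.84 and 9.30, and 8.66 and 9.25 at P8. With the block, Cldn14 in the apex and Ocln in the base had adjusted p-values of 0.0364 and 0.0363 between the ages (limma), with folds of 1.31 and 1.33 that were under the one asked for. For Marveld2 and Ocln, the arrays of neighbouring groups overlapped in all 5 steps of the order of the 6 groups.

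Whether the apex-base difference changed between the ages was tested directly, without a fold. None of the 10 genes passed, nor did any other gene (0% of 16306). With the block 0 of 10 passed, against 0.178%. At an unadjusted p under 0.05, 3 of 10 did, against 2.04% of all genes: Cldn23 with a change of 0.70 ± 0.26, Cldn14 with 0.48 ± 0.18 and Cldn9 with 0.46 ± 0.19, each positive in both sets and each with an adjusted p of 1 from limma. The gradients of Cldn9, Cldn14 and Cldn23 at the ages are therefore not shown to differ. Between neighbouring regions, 4 contrasts in all, no member passed without a block (0% of all tests passed, and 0.346% at an unadjusted p under 0.05 with the fold, again with no member) or with the dissection set as the block (0.0445%), and only the step of Cldn11 from middle to apex at P0 passed with a block for each pool (0.276%).

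**Figure D4:**
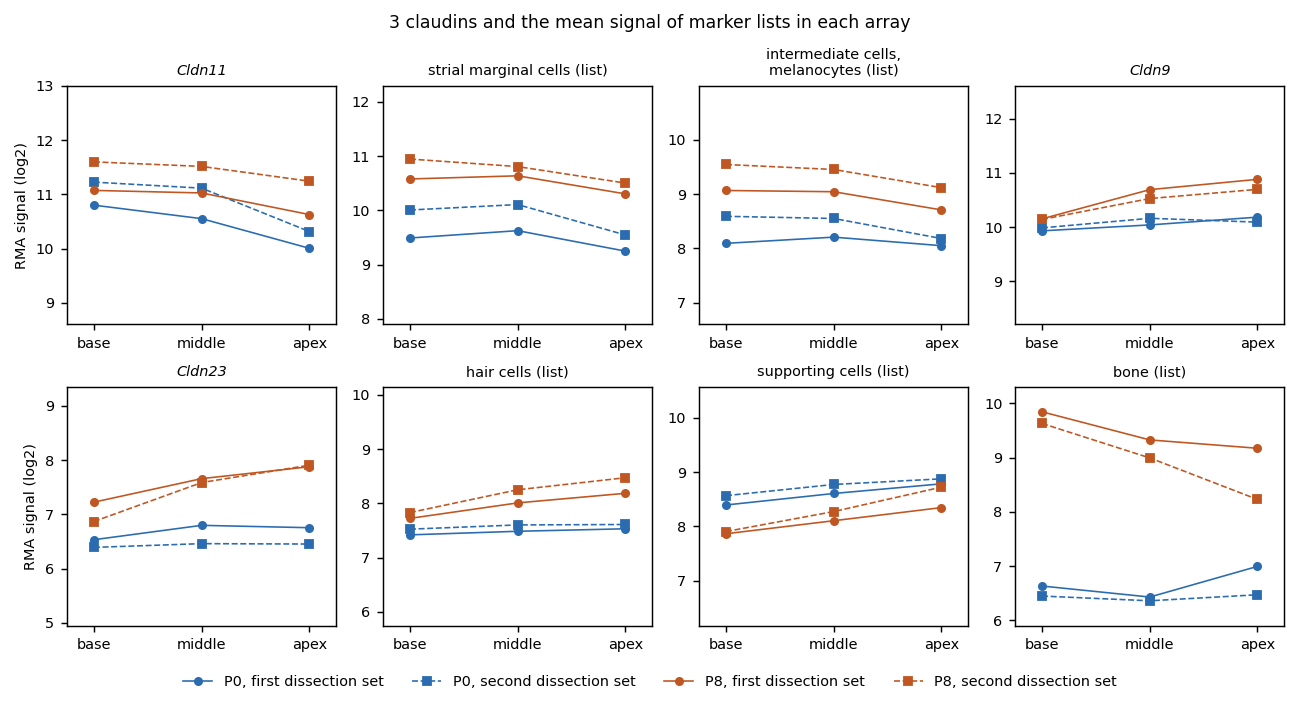
Log2 RMA signal (vertical axes, which span the same number of units in each panel) of Cldn11, Cldn9 and Cldn23 and the mean log2 signal of 5 marker lists in the base, middle and apex, with each point an array and lines joining the pieces of 1 pool. Cldn11 and the strial lists are lower in the apex than in the base in all 4 pools, and Cldn9, Cldn23 and the hair cell and supporting cell lists are higher in the apex than in the base at P8 in both sets.

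Among the other claudins, 15 had 1 symbol on the array and 12 were above the level of 6, Cldn2, Cldn10 and Cldn13 being under it in every group mean. None passed between apex and base at either age, with or without the dissection set as a block. With a block for each pool, 2.81% of all genes passed between apex and base at P8. Cldn19 (0.65, adjusted p = 0.0296) and Cldn24 (0.79, adjusted p = 0.0102) were among them in limma, both higher in the apex. With that block, where 0.926% of all genes passed, Cldn19 also passed for a change of the apex-base difference (1.06, adjusted p = 0.0412). Over the 3 regions none passed with age without the block and 1, Cldn19, with it, and 9 of 12 were higher at P8, with a median difference over all 12 of 0.18. Cldn19, a claudin of Schwann cell myelin and of the kidney, was higher by 1.05 ± 0.37 (adjusted p = 0.0862 from limma without and 0.00438 with the block), but by 1.76 in the first set and 0.35 in the second. Markers of Schwann cells were higher at P8 too, 4 of 4 tested by a median of 1.08, at 1.41 in the first set and 0.73 in the second, and their part in Cldn19 was not tested. Within regions and with the block, Cldn19 passed in the apex (1.54), Cldn12 passed in all 3 (0.81 for the base, 0.80 for the middle and 0.62 for the apex), and Cldn24 passed in the base (0.89) and the apex (1.06).

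Among 10 other membrane proteins of tight junctions, Marveld3 is a MARVEL domain protein like occludin and tricellulin. At P8 its apical signal exceeded the basal signal by 0.76 ± 0.25 (adjusted p = 0.779 from limma without and 0.0204 with the block), and within the apex its P8 signal was above that at P0 by 0.70 (blocked adjusted p = 0.0052). No other gene of this list passed between apex and base with or without the dissection set as a block. With a block for each pool, 1.42% of all genes passed between apex and base at P0 and 2.81% at P8. In that fit the adhesion molecule Jam3 passed as lower in the apex at P0 (-0.62, adjusted p = 0.0254 from limma) and at P8 (-0.62, adjusted p = 0.0147). Over all regions together none passed, and 7 of 10 were higher at P8, with a median difference over all 10 of 0.37. Ildr2, one of the angulins that bring tricellulin to tricellular contacts, passed with the block in each region, with 0.62 for the base, 0.78 for the middle and 0.62 for the apex. The adhesion molecule Jam2 also passed with the block in each region, at 0.97, 0.95 and 0.97.

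Of 16 plaque and polarity proteins, which tie the junction to the cytoskeleton, 15 were found and tested. Magi1, a scaffold protein, fell with age in the base (-0.59 ± 0.13, adjusted p = 0.047 from limma), the middle (-0.60 ± 0.13, adjusted p = 0.0431) and the apex (-0.60 ± 0.13, adjusted p = 0.0401). It was the 1 gene of this list to pass in a region. Between apex and base none passed at either age. In the mean of the regions 11 of 15 were lower at P8, with a median difference over all 15 of -0.08, beside medians of 0.17 for the 10 genes described and -0.001 for all genes.

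**Figure D5:**
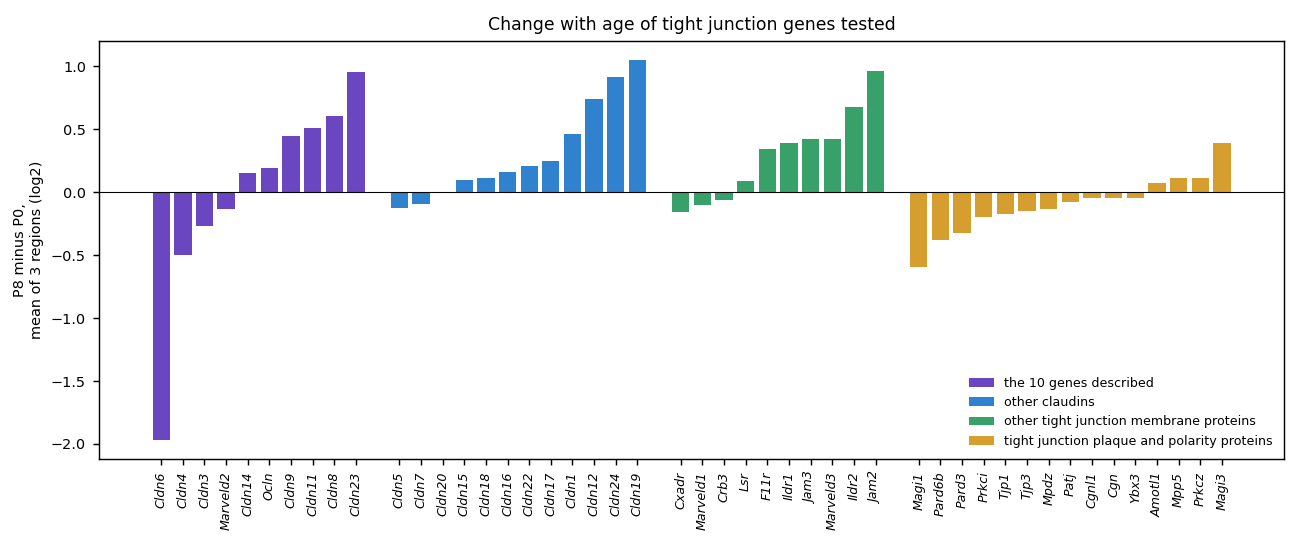
Difference between P8 and P0 as the mean of the 3 regions (log2, bars from 0) for the 10 genes described (purple), other claudins (blue), other tight junction membrane proteins (green) and plaque and polarity proteins (yellow), each sorted by value. Cldn6 at -1.97 has the lowest bar, and Cldn19 at 1.05 the highest.

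The genes whose signal was most like that of a member over the 12 arrays were taken from all 16306 tested genes, 3 for each member that passed a test. For Cldn6 they were Pdgfc (r = 0.99), Tgfbi (0.98) and Ddx39b (0.98). For Cldn9 they were Rassf6 (0.97), Ano4 (0.97) and Far1 (0.97), and for Cldn23 B130016D09Rik (0.97), Slc20a1 (0.97) and again Rassf6 (0.97). For Cldn11 they were Cyp3a13 (0.98), Gprc5a (0.96) and Cdkl1 (0.95). For Cldn4 they were Bex2 (0.98), Zfp740 (0.97) and Pcif1 (0.97), and for Cldn8 Gmppa (0.99), Orai3 (0.99) and Emc7 (0.98). These are the highest of 16305 correlations each, over arrays that share dissection sets, and are given as a description.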

How the data were processed

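Total RNA of pooled cochlear pieces was labelled and hybridized by the authors, who estimated expression with RMA (version not given in the sources used here). The deposited values are RMA signals on the log2 scale, with array medians from 7.21 to 7.29. It is not given in the sources used here if RMA was run once on all 12 arrays. Of 35556 entries, 21789 carry 1 gene symbol in the platform annotation; 1621 with several and 12146 with none were left out, and a gene was represented by the entry with the highest mean.

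Genes with a group mean above 6 were fitted with limma 3.58.1 in R 4.3.3 (lmFit, eBayes) with 6 group means and no block, as the study's test was unpaired (6 residual and 2.78 prior degrees of freedom), and p-values were adjusted over all 16306 genes. The pieces of a pool share animals. Deviations from the group means correlated at 0.544 to 0.916 between groups of the same set (15 pairs of groups), so the replicate numbers pair the samples. Some of these pairs join P0 with P8, where the pools share no animals.

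The genes named were all 10 members, those of 3 lists of other junction genes that passed with or without the block, and for each member that passed the 3 genes most correlated with it. Members and lists were chosen with earlier results of these data known. Alternatives were the set or pool as a block, each array left out, no filter, other scalings, a mean-variance trend, the mean of a gene's entries, only the arrays compared, and the methods' t-test. The fit was tested on simulated data.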

Additional observations from a re-analysis of the deposited data

How the results depend on the processing

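In the 7 main contrasts (those of neighbouring regions were followed only as a count of members called), 27 member differences had an unadjusted p under 0.05, or an adjusted p under 0.05 in a blocked fit, and none of these changed direction under the alternatives listed here. Of all 70 differences of the 10 genes in these contrasts, 22 changed sign when some array was left out, none of them a called one. The replicate block of the dissection set raised the count of members called from 0 to 1 for apex minus base at P0, from 0 to 2 at P8, from 0 to 2 for P8 minus P0 in the base, from 1 to 2 in the middle and from 2 to 5 in the apex, and changed no other count. The replicate block of pool gave 1 and 2 for the apex-base contrasts at P0 and P8 (against 1.42% and 2.81% of all genes) and 1 for neighbouring regions (0.276%). For P8 minus P0 in the middle, centring arrays on their median gave 2, quantile normalization 2 and only the arrays compared 0. In the base, quantile normalization gave 1. In the apex, the mean-variance trend gave 1 and only the arrays compared 0. The methods' t-test without adjustment gave 2 for apex minus base at P8 and 1 for P8 minus P0 in the base, and after Benjamini-Hochberg adjustment 0 in the middle and 0 in the apex. With each array left out in turn, counts ran from 1 to 2 over the 3 regions, 0 to 1 in the base, 0 to 2 in the middle and 1 to 2 in the apex. The cause of these changes was not tested. Shares over all genes were not counted for the other scalings, the trend, the arrays compared and the left-out arrays. The mean of a gene's entries equals the value used, since each member has 1 entry. Fits of the dissection set block without each array were chosen after seeing the data. With 2 arrays per group, precision is limited by their number, and probe-level signal over background was not analysed here.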
